A study of Mus musculus with 6 samples.

Results

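Non-dividing C1q macrophages were examined in single-cell RNA libraries of whole mouse melanomas, as 1931 of the 52390 cells kept from 6 libraries (3.69%). The cells were chosen by their own counts of unique molecular identifiers (UMIs), each of which stands for 1 captured RNA molecule. Barcodes counted as cells if 300 or more genes and 500 or more UMIs were found and no more than 20% of the UMIs were mitochondrial. Such a kept cell was a member when it held at least 2 UMIs of Tyrobp and Fcer1g together, at least 1 of Lyz2 and none of Cd3d, Cd3e or Cd3g. It also needed at least 4 UMIs of C1qa, C1qb and C1qc together, at most 1 of Arg1 and Mmp12, none of Mgl2 and at most 1 of Mki67 and Top2a. The levels of these genes in members therefore describe the selection and are not results.

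The tumours were grown from YUMMER1.7, a mouse melanoma cell line, after injection of 600000 cells under the skin of male C57Bl/6 mice aged 6 to 8 weeks. Tumours of 3 exercise libraries (numbered 5, 6 and 8) came from mice given 14 days of running, each day for 45 minutes at a speed of 12 metres per minute, and those of 3 sedentary libraries (1, 2 and 3) came from mice without running. Every mouse carried the injected line, which limits the tumours to 1 transplanted model, and no cell type was sorted from the digested tissue. The labels do not say how animals map to libraries beyond their numbers, so p-values measure the spread between these libraries.

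Macrophages are phagocytes of tissues and tumours that derive from embryonic precursors or from blood monocytes. C1q, assembled from the products of C1qa, C1qb and C1qc, starts the classical complement pathway, coats dying cells for uptake, and is made mainly by macrophages. In mouse tumours, C1q macrophages are known for clearing debris, presenting antigen and carrying lipid, and newly recruited monocytes can acquire the same genes as they mature.

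The 250 bases before the RefSeq start of 4 genes are shown: C1qb and C1qc, which the selection used, and Ccl8 and Pf4, which were highest in members rich in C1q, as described below. Of the C1qc window, 151 bases lie inside the gene as GENCODE annotates it, and of the other 3 windows 0. Sequences are RefSeq promoter windows of GRCm38.p6, written 5′ to 3′ on the strand of the gene. Capitals mark GAGGAA, the core bound by PU.1, and TGCTGA, a MAF half-site, each searched on both strands. The windows lie at chr4:136886201-136886450 on the minus strand for C1qb, chr4:136892915-136893164 on the minus strand for C1qc, chr11:82114935-82115184 on the plus strand for Ccl8 and chr5:90772185-90772434 on the plus strand for Pf4.
C1qb: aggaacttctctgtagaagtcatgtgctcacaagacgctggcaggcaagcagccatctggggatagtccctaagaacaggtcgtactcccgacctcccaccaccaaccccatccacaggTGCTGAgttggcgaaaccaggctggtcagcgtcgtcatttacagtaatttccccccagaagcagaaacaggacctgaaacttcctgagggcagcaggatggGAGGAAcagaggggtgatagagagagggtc
C1qc: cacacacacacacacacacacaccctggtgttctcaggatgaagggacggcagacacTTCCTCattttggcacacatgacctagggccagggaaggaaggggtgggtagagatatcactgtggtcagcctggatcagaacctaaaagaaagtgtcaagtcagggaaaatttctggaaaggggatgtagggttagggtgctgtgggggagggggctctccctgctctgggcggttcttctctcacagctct
Ccl8: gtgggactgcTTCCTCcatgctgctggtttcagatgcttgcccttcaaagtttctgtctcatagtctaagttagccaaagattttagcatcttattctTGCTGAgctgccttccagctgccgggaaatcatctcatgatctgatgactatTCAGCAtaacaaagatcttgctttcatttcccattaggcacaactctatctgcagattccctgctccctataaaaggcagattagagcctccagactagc
Pf4: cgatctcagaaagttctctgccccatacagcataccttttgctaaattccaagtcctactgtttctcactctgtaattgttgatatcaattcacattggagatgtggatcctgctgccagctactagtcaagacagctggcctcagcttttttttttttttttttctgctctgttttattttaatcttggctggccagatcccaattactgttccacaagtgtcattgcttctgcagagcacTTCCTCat
The PU.1 core occurred 1 time in each of the 4 windows, and 23.3% of all 32851 mouse windows of that length held it. The MAF half-site occurred 1 time at C1qb and 2 times at Ccl8, and 16.1% of all windows held it. A match describes the letters of the window only. C1qa was named without a sequence.

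Per library, members numbered 356, 235 and 497 in exercise libraries 5, 6 and 8, against 256, 318 and 269 in sedentary libraries 1, 2 and 3. Their UMIs summed to between 851068 and 1668265 per exercise library and between 695623 and 1449456 per sedentary library, and levels are given as UMIs per 1000000 UMIs (CPM) of the named cells of a library. The median UMIs per member were 3754, 3054 and 1872 in exercise libraries, against 1139.5, 4095.5 and 2772 in sedentary libraries. Members of sedentary 1 were the shallowest, and 811 members (42.0%) had fewer than 2000 UMIs. Of the member barcodes, 19 also occurred among kept cells of another library and 0 were members there. Sedentary 2 stood apart from the other libraries by low Apoe and high monocyte genes, and results that rest on it are given with and without it.

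C1qa, C1qb and C1qc lie next to each other on chromosome 4 in the GENCODE annotation of GRCm38, on the minus strand, with C1qa from 136895917 to 136898803, C1qb from 136880129 to 136886187 and C1qc from 136889804 to 136893065. Apoe lies on chromosome 7 from 19696109 to 19699188, and Ms4a7 on chromosome 19 from 11321039 to 11336146, both on the minus strand.

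Members were checked against markers that the selection did not use. Apoe, which codes for the lipid carrier apolipoprotein E, had 4441, 4934 and 10258 CPM in members of exercise libraries, against 7244, 1617 and 4896 in those of sedentary libraries. In the other kept cells Apoe had 148 to 369 CPM. Ms4a7, a membrane gene of tissue macrophages, had 451, 402 and 656 in members of exercise libraries, against 605, 245 and 332 in those of sedentary libraries, and 9.59 to 25.1 in other cells. Pf4, a chemokine gene of platelets and of resident macrophages, had 607, 485 and 647 in members of exercise libraries, against 814, 400 and 815 in those of sedentary libraries, and 18.0 to 64.2 in other cells. Each of the 3 markers was above the other kept cells in all 6 libraries, and the groups overlapped for all 3. The macrophage genes Csf1r, Adgre1, Fcgr1 and Cd68 were also higher in members than in other kept cells in every library, whereas Mertk was not in sedentary 1 (33.1 against 33.7) or sedentary 3 (28.6 against 29.5). By summed levels against the other kept cells, the label of a C1q macrophage fitted its markers Apoe, Ms4a7 and Pf4. A UMI of Ms4a7 or Pf4 was found in only a part of members, as given below. Pf4 was also not highest in members among C1q macrophages. Cells that failed only the Arg1 and Mmp12 clause had 1301 to 2201 CPM of Pf4, against 400 to 815 in members. Cells that failed only the Mgl2 clause had 524 to 1458, and dividing C1q macrophages 226 to 477.

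**Figure D1:**
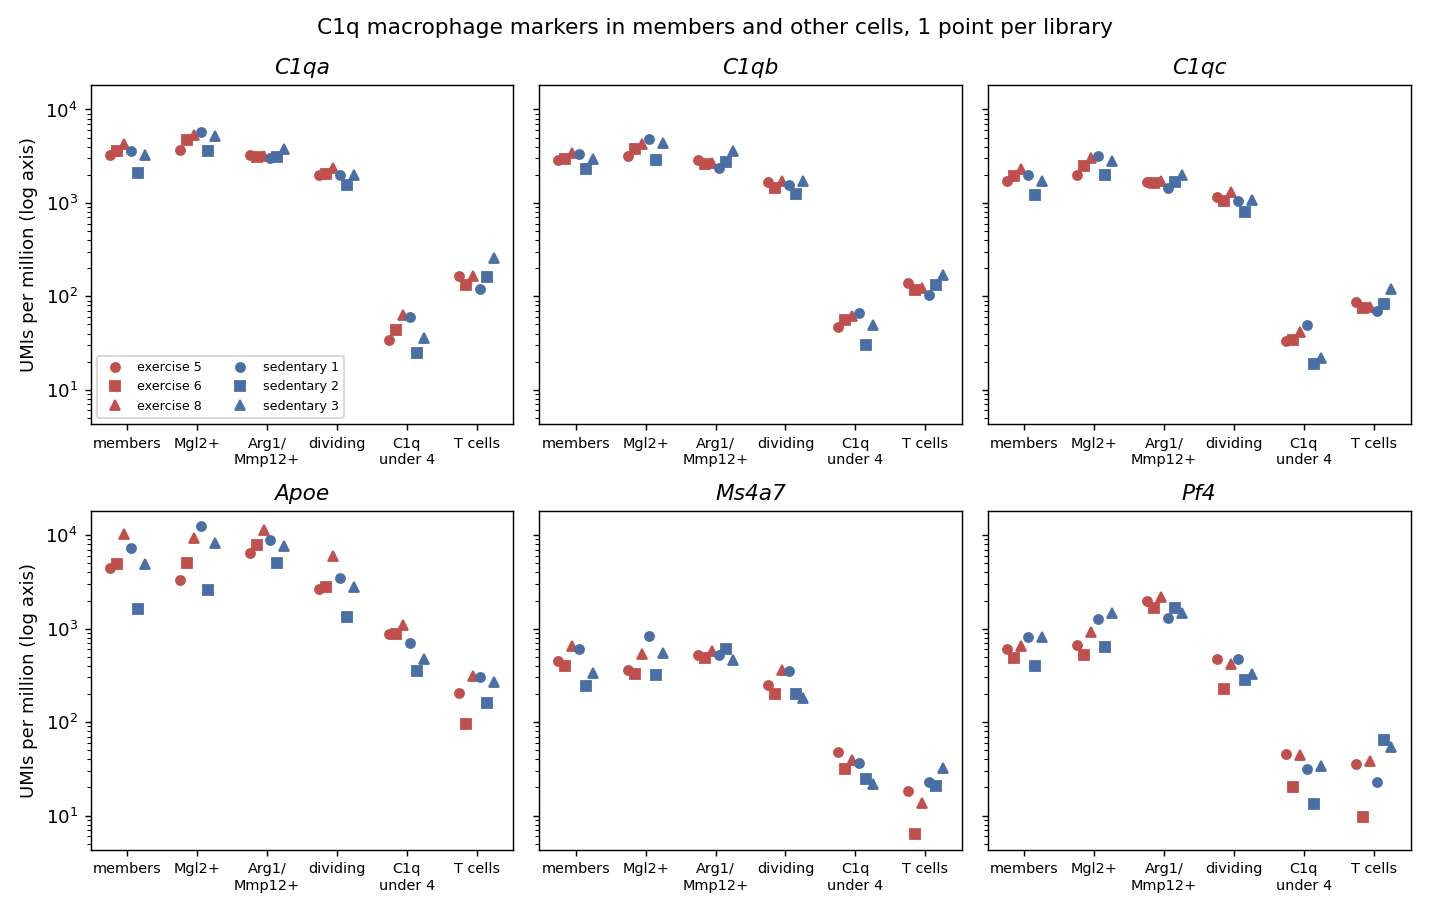
CPM of each kind of cell (log axis) for 6 marker genes, 1 point per library, in members and in cells that failed 1 clause of the selection or were T cells. Exercise libraries are red and left of the blue sedentary libraries. Apoe, Ms4a7 and Pf4 were lower in C1q-poor myeloid cells and T cells than in members of the same library.

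Ranked by the ratio to all other kept cells, the 20 leading genes of members were at log2 ratios of 4.08 to 4.59. Folr2, a folate receptor gene of resident macrophages, led at 59.0 CPM in members (17.9 to 105 by library) against 1.96 in other cells. Ccl8, a chemokine gene, averaged 1744 in members (646 to 2822) against 72.5 in other cells. Behind them came Ms4a7, Apoe and Aif1, a macrophage actin-binding gene, with the C1q genes of the selection among them. The activating Fc receptor genes Fcgr4 and Fcgr1, which bind antibody-coated targets, stood at 337 and 352 CPM in members, against 17.1 and 18.9 in other cells. The list also held the membrane genes Ms4a6c, Ms4a6d and Ms4a4c, the phosphatase gene Acp5, the chemokine gene Ccl12 and the lysosomal protease gene Ctss, which averaged 2539 in members against 149 in other cells. These ratios follow from the selection and carry no test.

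C1q RNA was present in nearly all members by construction, so its chains are given only in proportion to each other. C1qa supplied 37.5% to 42.7% of the C1q UMIs of members, C1qb 34.1% to 40.9% and C1qc 21.4% to 23.3%. In T cells, called by at least 2 UMIs of the Cd3 genes, the chains stood at 40.6% to 47.0% for C1qa, 30.7% to 36.0% for C1qb and 20.9% to 23.8% for C1qc. T cells should lack C1q, so their counts give a background of C1q RNA. They do not give a rate of false entry, since the selection excluded cells with Cd3 UMIs. At least 4 C1q UMIs were found in 3.81%, 4.14% and 5.94% of T cells in exercise libraries, against 5.25%, 5.08% and 5.59% in sedentary libraries. Most of these also passed the Tyrobp, Fcer1g and Lyz2 clauses. T cells that passed all of these were 3.34%, 3.39% and 4.45% in exercise libraries, against 4.07%, 3.44% and 3.95% in sedentary libraries. The median depth of T cells was 2491 to 3760.5 UMIs.

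The threshold cut through a continuous range of C1q counts. There were 105 members with exactly 4 C1q UMIs, and 129 cells that met all other clauses had exactly 3. Pf4 in cells with 4 C1q UMIs was 329, 299 and 105 CPM in exercise libraries and 387, 122 and 338 in sedentary libraries. In cells with 3 C1q UMIs it was 19.8, 69.6 and 238 in exercise libraries and 169, 63.9 and 145 in sedentary libraries. Within a library, Pf4 was thus higher at 4 than at 3 C1q UMIs, except in the exercise library with 105 against 238 CPM. Across libraries the values on both sides of the threshold overlapped.

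Members differed from the macrophage kinds that failed 1 clause, and these differences are likewise descriptions. The 435 cells with Arg1 or Mmp12, which code for the arginine-degrading enzyme and for macrophage elastase, carried more Atp6v0d2, Nos2, Gpnmb, Il7r, Fabp4, Mmp13 and Inhba than members in all 6 libraries. Nos2, the inducible nitric oxide synthase gene, averaged 9.49 CPM in members against 132 in the Arg1 or Mmp12 cells. Gpnmb, a gene of lipid-laden macrophages, averaged 29.1 in members against 248 in those cells. Members carried more Cx3cr1, the fractalkine receptor gene, at 122 CPM against 37.3, and more Plac8, a monocyte gene, at 1021 against 328. Plac8 was not limited to myeloid cells here, since it averaged 438 CPM in T cells.

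Against the 1175 cells with a UMI of Mgl2, a lectin gene of antigen-presenting myeloid cells, members were higher in monocyte genes in all 6 libraries. Ly6c2, the gene of the Ly6C monocyte antigen, averaged 406 CPM in members against 79.2 in the Mgl2 cells, and Vcan, the gene of the matrix proteoglycan versican, 54.9 against 9.64. Members were lower in Cx3cr1, at 122 against 230 in the Mgl2 cells. Against the 317 dividing C1q macrophages, members were higher in Slpi, Plac8, Chil3, Vcan, Thbs1 and Ly6c2, and lower in the mitotic genes Kif11, Cenpf, Prc1 and Ccnb1. Against the 2695 myeloid cells with fewer than 4 C1q UMIs, members were higher in Ccl8, Fcrls, Folr2, Gas6, Pf4, Igf1 and Ms4a7. The C1q-poor cells were higher in the neutrophil genes S100a8 and S100a9 and in Hp and Ifitm6.

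The members were not uniform in C1q. Members with at least 2000 UMIs and fewer than 5 tumour marker UMIs were thinned to 2000 UMIs each. They were divided into 3 classes of equal size by C1q count within each library, so that C1q was counted at equal depth. Depth before thinning still differed between classes. Its median was 4087, 3693 and 3357 UMIs in the C1q-low class of exercise libraries, against 5242, 4881 and 4603 in the C1q-high class. In sedentary libraries it was 4643, 4646.5 and 3546, against 4057, 5319 and 4314. Classes held between 23 and 84 cells, and 1 UMI in the smallest was worth 21.7 CPM. After thinning, the median C1q count of the C1q-low class was 6, 7 and 9 in exercise libraries and 3.5, 3 and 7 in sedentary libraries. The selection came before thinning, so this class held cells with 0 thinned C1q UMIs in exercise 5, sedentary 1 and sedentary 2. The classes were cut on C1q, a gene of the selection, so the following is a description.

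Genes of resident-type macrophages were highest in the C1q-high class. Pf4 averaged 98.8 CPM in the C1q-low class and 1201 in the C1q-high class, and was higher in the C1q-high class in 6 of 6 libraries. Folr2 averaged 3.14 in the C1q-low class and 111 in the C1q-high class. Gas6, whose product bridges dying cells to the receptors Mertk and Axl, averaged 6.64 in the C1q-low class and 123 in the C1q-high class. Igf1, a growth factor gene, C4b, a complement gene, and Fcrls, an Fc receptor-like gene, were in the same group, as were the adhesion gene Vcam1 and the prostaglandin enzyme gene Ptgs1. Apoe averaged 1647 in the C1q-low class and 13257 in the C1q-high class.

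Genes of blood monocytes were highest in the C1q-low class. Vcan averaged 175 CPM in the C1q-low class and 8.63 in the C1q-high class. Chil3, a chitinase-like gene of monocytes, averaged 180 in the C1q-low class and 15.4 in the C1q-high class. Plac8 averaged 3037 in the C1q-low class and 610 in the C1q-high class. Vcan, Chil3 and Plac8 were lower in the C1q-high class in 6 of 6 libraries. In the C1q-high class of sedentary 2, Plac8 still stood at 1937 CPM, against 167 to 500 in that class of the other 5 libraries. Csf1r, the receptor gene on which macrophages depend, had 326 to 589 in the C1q-low class and 430 to 775 in the C1q-high class. These ranges overlapped, but within a library Csf1r was higher in the C1q-high class, except in exercise 6 (568 against 589). H2-Ab1, a class II antigen presentation gene, had 3438 to 6225 in the C1q-low class and 4326 to 6556 in the C1q-high class. These ranges also overlapped. H2-Ab1 was higher in the C1q-high class within every sedentary library. In exercise libraries it was mixed, at 5813, 5739 and 4486 in the C1q-high class against 5595, 5978 and 6225 in the C1q-low class.

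**Figure D2:**
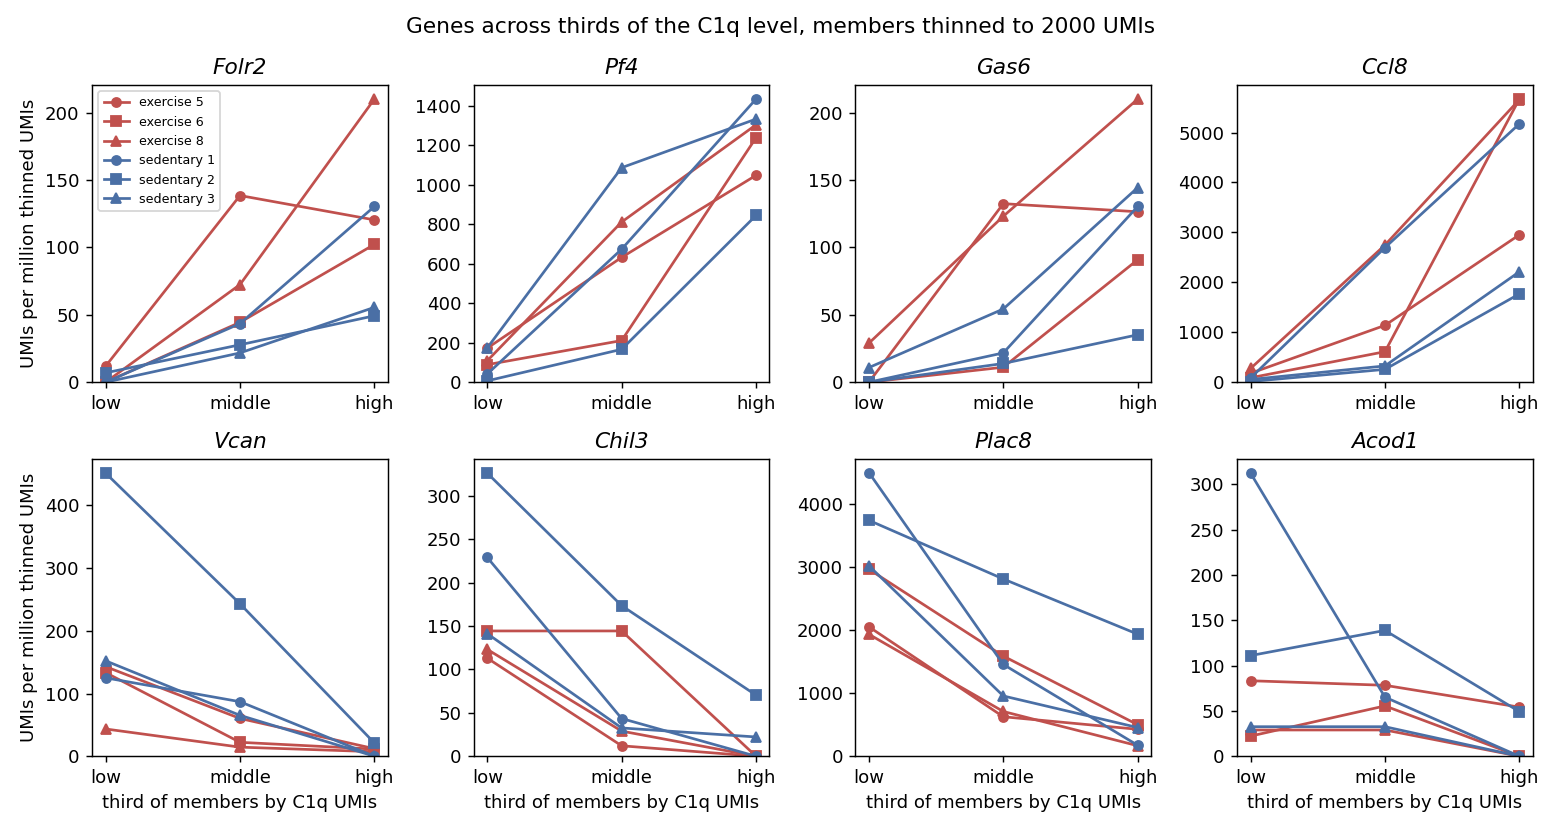
CPM of thinned UMIs in the low, middle and high class of members by C1q count, 1 line per library, exercise red and sedentary blue. Folr2, Pf4, Gas6 and Ccl8 were higher in the high than in the low class and Vcan, Chil3, Plac8 and Acod1 lower in every library.

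The share of members with a UMI was read at 2000 UMIs per cell, leaving out 811 shallower members. Mrc1, the mannose receptor gene, was found in 14.1% to 41.6% of members by library (20.8% to 49.7% unthinned, all members) and in 0.293% to 2.49% of T cells. Trem2, a lipid receptor gene, was found in 10.1% to 24.4% of members (19.2% to 34.0% unthinned) and in 0.480% to 2.34% of T cells. Chil3 was found in 4.12% to 15.4% of members (3.42% to 18.9% unthinned), 0% to 1.72% of T cells and 25.2% to 40.4% of C1q-poor myeloid cells. Timd4, a marker gene of long-lived resident macrophages, was found in 0% to 1.28% of members, and Lyve1, another such gene, had 0 to 12.1 CPM in members. Spp1, the osteopontin gene, was found in 29.2% to 66.9% of members and in 35.4% to 69.4% of T cells. Its share thus did not set members apart from T cells, and the part of RNA from other cells in it was not tested. Ly6c2 was found in 24.7% to 55.9% of members, 49.3% to 61.6% of C1q-poor myeloid cells and 30.9% to 57.1% of T cells. T cells can also express it, so its share says little. Its level of 406 CPM in members stood above the 79.2 in Mgl2 cells and the 69.6 in dividing C1q macrophages. The 6 monocyte markers, which include Ly6c2, summed to 1038 to 3736 CPM in members, 681 to 1359 in T cells and 4489 to 5659 in C1q-poor cells. Plac8 was found in 33.1% to 76.7% of members and 32.5% to 58.8% of T cells.

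Members also differed by depth. Members below 2000 UMIs had 118 to 194 CPM of Top2a, the gene of a topoisomerase used in division, against 21.5 to 35.3 in deeper members with fewer than 5 tumour marker UMIs. Prc1 and Birc5, which act in cell division, were also higher in the shallow members in all 6 libraries, at means of 93.2 against 12.1 and of 122 against 20.5. The same ranking held genes of tumour and stromal cells, with Col3a1, a collagen gene and tumour cell marker here, at 266 CPM in shallow against 57.6 in deeper members, Sparcl1, a matrix protein gene, at 125 against 26.5, and Tpm2, a tropomyosin gene, at 77.8 against 15.7. Barcodes with 5 or more tumour marker UMIs were left out of the deeper members, and the part of RNA from other cells in these differences was not tested. Up to 1 UMI of Mki67 and Top2a was allowed whatever the depth of the cell. The deeper members were higher in Plac8 (1474 against 115), Ly6c2 (592 against 65.1) and Ccr2, the monocyte chemokine receptor gene (483 against 97.4). A share of 25.0%, 37.9% and 51.3% of members was below 2000 UMIs in exercise libraries, against 69.5%, 28.6% and 40.5% in sedentary libraries.

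RNA of other cells was present in members. The 10 tumour cell markers summed to 623 to 939 CPM in members of exercise libraries, against 612 to 1202 in those of sedentary libraries, and to 919 to 1316 in T cells. There were 111 members with at least 5 tumour marker UMIs. These were 3.77% to 8.92% of the members of a library and held 16.5% to 32.4% of its member UMIs. The 10 T and NK cell markers summed to 47.2 to 80.9 in members of exercise libraries and 36.0 to 115 in those of sedentary libraries, against 2901 to 4068 in T cells. The 6 neutrophil markers summed to 34.1 to 187 in exercise and 61.8 to 103 in sedentary libraries, and the 8 dendritic cell markers to 7.05 to 10.2 and 2.88 to 11.1 in the same order. The 8 stromal markers summed to 328 to 437 in members of exercise libraries and 481 to 529 in those of sedentary libraries. The 6 mast cell markers summed to 39.5 to 53.9 and 31.4 to 35.9, and the 5 erythroid markers to 0 to 1.20 and 1.38 to 11.5, again exercise before sedentary.

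The 5 B cell markers summed to 1648 CPM in members of exercise 5 and to 7.79 to 15.8 in the other libraries. In exercise 5, 2562 of the 2566 UMIs of Igkc, an immunoglobulin light chain gene, came from 1 member. The B cell marker Ms4a1 had 0 UMIs in members of all 6 libraries.

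The study compared tumours of mice that ran with tumours of sedentary mice. Members made up 4.35%, 2.48% and 4.93% of kept cells in exercise libraries, against 3.23%, 4.42% and 2.83% in sedentary libraries. The means were 3.92% ± 1.28 in exercise and 3.49% ± 0.826 in sedentary libraries (SD, n = 3 each), a difference of 0.430 percentage points (two-sided exact permutation p = 0.80). Of myeloid cells, which passed the Tyrobp, Fcer1g, Lyz2 and Cd3 clauses, members were 18.2%, 19.6% and 32.0% in exercise libraries, against 25.1%, 17.4% and 23.7% in sedentary libraries. The difference of 1.24 percentage points was within the spread of the libraries (two-sided exact permutation p = 0.80). The groups overlapped in both shares, and 3 libraries against 3 cannot give a p below 0.1. Leaving out exercise 8 turned both differences negative, to -0.0765 and -3.12 percentage points, and leaving out sedentary 2 turned the second to -1.10. Whether members were more frequent in exercised tumours could not be told at this size.

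**Figure D3:**
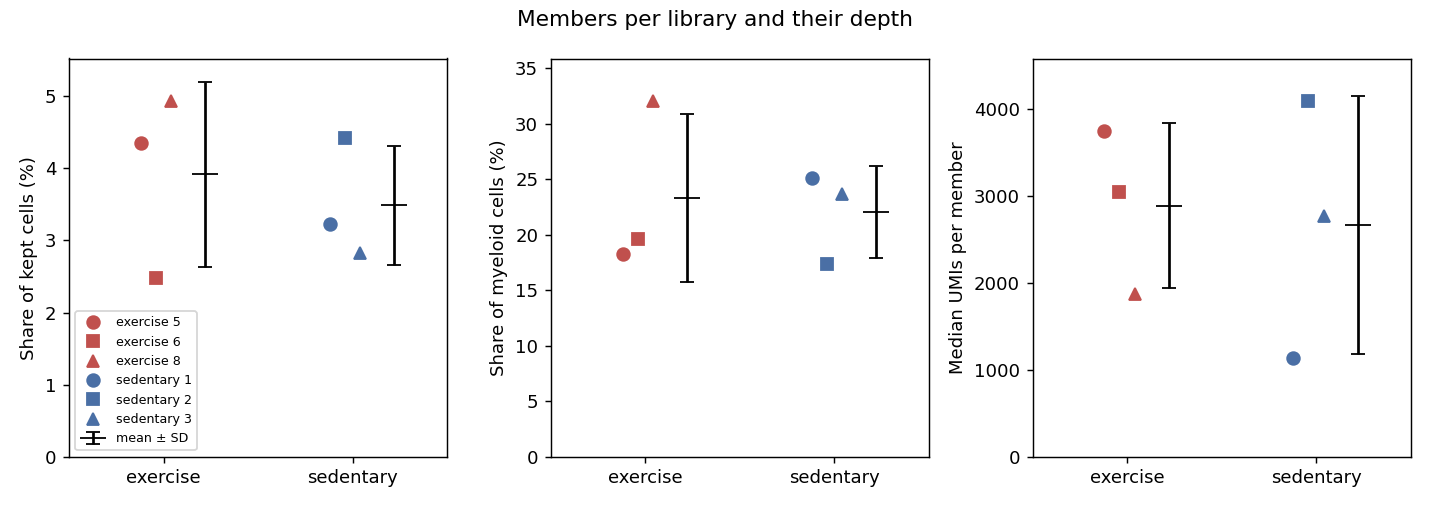
Members as a share of kept cells and of myeloid cells (%) and their median UMIs, 1 point per library, exercise left of sedentary, with bars for the mean ± SD of 3 libraries. The groups overlapped in all 3 panels, and sedentary 1 had the lowest median depth at 1139.5 UMIs.

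Summed member counts per library were then compared gene by gene. No gene passed an adjusted p of 0.05 among 8630 tested in edgeR's quasi-likelihood test (0 called, 0% of genes), and the smallest adjusted p was 0.970. An unadjusted p under 0.05 was reached by 231 genes that were higher in exercise (2.68%) and 147 that were lower (1.7%). DESeq2 called 1 gene, Dcn. The count depended on the filter on low counts: without it, edgeR's quasi-likelihood test called 47 of 15554 genes, 25 higher and 22 lower in exercise. Among them were these genes of the lists and rankings described next: C4b, Cd163, Gclm, H2-M2, Tbxas1, Clec10a, Adgre1, Arhgap19 and Fchsd2, which were higher, and Dcn, Ankrd37, Ddit4, P4ha2 (a collagen prolyl hydroxylase gene), Hacd1, Ctsl, S100a10 and Pgk1, which were lower. Without the filter the log2 fold change of Dcn had an edgeR adjusted p of 2.13e-11, the smallest of these, and the log2 fold change of Pgk1, a glycolytic enzyme gene, one of 0.0486, the largest. Exercise and sedentary libraries did not overlap for 651 genes that were higher (7.54%) and 233 that were lower (2.7%). A sum over cells cannot tell fewer expressing members from less RNA in each of them. With the filter, which is the form of the test reported from here on, none of the genes that follow passed, and each edgeR adjusted p was 0.970.

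C4b, a complement gene, was among the 10 genes with the smallest p that were higher in exercise. It had 69.5, 36.4 and 71.3 CPM in members of exercise libraries, against 33.1, 13.8 and 21.3 in those of sedentary libraries (log2 fold change 1.44, SE 0.34). C4b has a close copy, C4a, and reads may be shared between them. It was also among the genes that were highest in the C1q-high class.

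The same ranking held Tbxas1, the thromboxane synthase gene, at 72.6, 57.6 and 78.5 in members of exercise libraries, against 47.4, 32.4 and 30.5 in those of sedentary libraries (log2 fold change 0.92, SE 0.22). Gclm, a gene of glutathione synthesis, averaged 49.2 ± 17.8 in exercise and 19.6 ± 4.62 in sedentary libraries (SD, n = 3 each). Its fold change was -0.18 instead of 1.25 when all kept cells of 2000 UMIs or more were thinned to 2000 and selected anew. This changed the cells: 424, 241 and 376 were then members in exercise libraries, where 267, 146 and 242 members had 2000 UMIs or more. In sedentary libraries 162, 244 and 235 were members, against 78, 227 and 160. The same holds for every fold change and list median after thinning below, so depth and selection cannot be told apart there. H2-M2, a non-classical class I gene, averaged 25.5 ± 3.57 in exercise and 8.79 ± 5.82 in sedentary libraries. Arhgap19, Rab11fip5, Chchd10, Fchsd2 and Tbc1d4 were also in this ranking, at log2 fold changes of 1.35, 0.98, 1.15, 1.13 and 1.54.

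Dcn, the gene of the matrix proteoglycan decorin, had the smallest p among genes lower in exercise. It had 53.5, 47.0 and 92.3 CPM in members of exercise libraries, against 197, 274 and 122 in those of sedentary libraries (log2 fold change -1.65, SE 0.34). DESeq2 gave it a log2 fold change of -1.66 and an adjusted p of 0.00461. Dcn was also lower on average in exercise in cells that were not members, at 216 against 377 in all other kept cells and 87.6 against 149 in T cells. In members without 5 tumour marker UMIs it was 22.7 ± 14.7 in exercise and 37.1 ± 2.19 in sedentary libraries (SD, n = 3 each), with a log2 fold change of -0.80. Dcn is itself on the stromal marker list, and members of all barcodes averaged 64.3 and 198 in the same order. The part of RNA from other cells in this difference was not tested beyond these values.

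Hacd1, Ptn, Sdc1 and Rgs17 were also lower in exercise and were higher in the other kept cells than in members. Hacd1, a gene of fatty acid elongation, had 19.1 to 27.0 CPM in members of exercise libraries and 31.7 to 52.7 in those of sedentary libraries, without overlap, and averaged 87.9 and 93.6 in the other kept cells, exercise first. Without the barcodes that held at least 5 tumour marker UMIs its fold change was -0.07 instead of -1.05. S100a10, a calcium-binding protein gene, had 633, 764 and 568 in members of exercise libraries, against 828, 976 and 995 in those of sedentary libraries. S100a10 averaged 1544 and 1457 in the other kept cells and 1194 and 1245 in T cells, exercise first in both. Tpm4, a tropomyosin gene, had a log2 fold change of -0.52. Without the tumour-marked barcodes the fold changes of S100a10, Tpm4 and Rgs17 were -0.44, -0.46 and -1.10. Ptn, a growth factor gene, averaged 18.6 in members of exercise and 35.5 in those of sedentary libraries, and 3.46 and 7.97 without the tumour-marked barcodes. Mcee, a mitochondrial epimerase gene, and the long non-coding gene Gm14005 had log2 fold changes of -0.86 and -0.89, and without the tumour-marked barcodes -0.93 and -0.91.

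The 6 marker genes of the state overlapped between exercise and sedentary libraries. Those of the C1q chains chose the members and are given as levels only. C1qa had 3259, 3606 and 4236 CPM in members of exercise libraries, against 3624, 2089 and 3259 in those of sedentary libraries. C1qb had 2852, 2932 and 3381 in exercise libraries, against 3305, 2282 and 2953 in sedentary libraries, and C1qc 1733, 1922 and 2309, against 1978, 1205 and 1696. Apoe, Ms4a7 and Pf4 had log2 fold changes of 0.47, 0.32 and -0.26. Sedentary 2 was the lowest library for all 6 genes, and without it the fold change of Apoe was 0.05.

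Gene lists are described by how many tested members were higher, beside 49.7% over all 8630 genes, where the median log2 fold change was -0.00. Lists share genes, among them Mertk, Stab1, Gas6, Abca1, Ctsd and Cd163, so their counts are not independent of each other. Of 20 scavenger and resident macrophage genes, 17 were tested and 15 were higher in exercise (median log2 fold change 0.64). Cd163, the haemoglobin scavenger receptor gene, had 23.6, 8.22 and 27.6 CPM in members of exercise libraries, against 8.63, 0.690 and 6.47 in those of sedentary libraries (log2 fold change 2.15, SE 0.65, and 1.45 without sedentary 2). The groups overlapped for Cd163 because exercise 6 was below sedentary 1. Clec10a, a lectin gene, had 79.7, 39.9 and 39.0 in exercise libraries, against 30.2, 4.14 and 19.4 in sedentary libraries (log2 fold change 1.69, SE 0.61, and 1.10 without sedentary 2). Clec10a is a close relative of Mgl2, which the selection required to be 0, and reads may be shared between them. Ccl24, a chemokine gene that attracts eosinophils, had 72.0, 125 and 36.0 in exercise libraries, against 15.8, 42.8 and 19.4 in sedentary libraries.

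The scavenger list depended on single libraries, with a median of 0.36 without sedentary 2 and 1.10 without sedentary 1. It was 0.37 after thinning to 2000 UMIs and selection anew, and 0.71 in members of 2000 UMIs or more. The mean log2 level of the list (1 CPM added) was 7.13, 6.43 and 6.93 in exercise libraries, against 6.62, 5.12 and 6.04 in sedentary libraries. Marco, a scavenger receptor gene, was highest in exercise 5, with 132 CPM there, 8.22 and 8.39 in the other exercise libraries, and 10.1, 0 and 1.85 in sedentary libraries. Pf4 was lower in exercise, with a log2 fold change of -0.26. Selenop, a selenium carrier gene, had 691, 590 and 906 in exercise libraries, against 634, 157 and 370 in sedentary libraries, so that sedentary 1 lay within the exercise range.

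**Figure D4:**
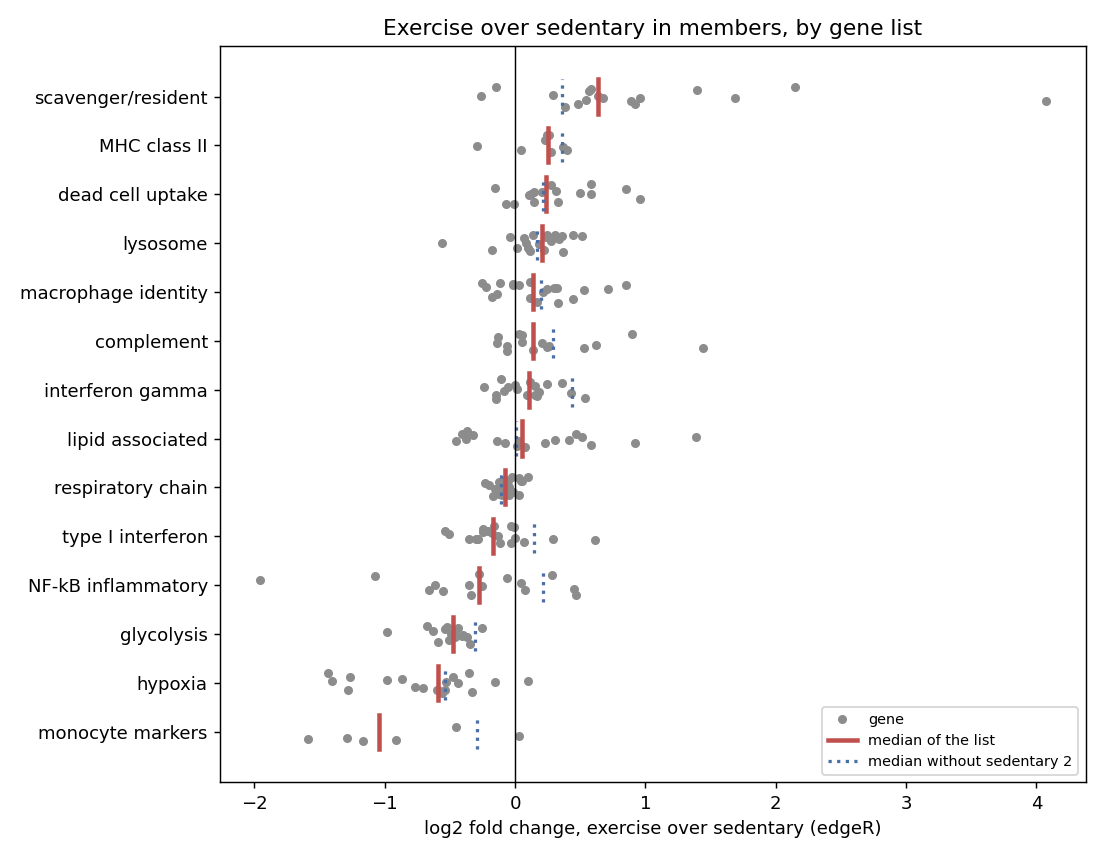
log2 fold change of exercise over sedentary in members for each tested gene of 14 lists (grey points), with the median of the list (red bar) and the median without sedentary 2 (blue dotted bar). The scavenger list had the highest median, at 0.64, and the monocyte marker list the lowest, at -1.04, which was -0.29 without sedentary 2.

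Of the 20 macrophage identity genes, 13 were higher in exercise (median log2 fold change 0.14). The median was 0.032 after thinning to 2000 UMIs and selection anew, and 0.18 in members of 2000 UMIs or more. Adgre1, the F4/80 gene, had 188, 128 and 162 CPM in members of exercise libraries, against 118, 71.1 and 99.8 in those of sedentary libraries (log2 fold change 0.71, SE 0.21). The groups did not overlap for Adgre1. Csf1r had 429, 427 and 389 in exercise libraries, against 345, 333 and 282 in sedentary libraries (log2 fold change 0.33, SE 0.14). Maf, a transcription factor gene of macrophages, had 465, 363 and 399 in exercise libraries, against 289, 310 and 277 in sedentary libraries, also without overlap.

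Dead cell uptake genes were higher for 13 of the 16 tested, with a median log2 fold change of 0.24, which was 0.14 after thinning to 2000 UMIs. Mertk, the receptor gene for coated dying cells, had 45.2, 41.1 and 73.1 CPM in exercise libraries, against 33.1, 26.2 and 28.6 in sedentary libraries (log2 fold change 0.85, SE 0.26). Its relative Axl overlapped between groups, with a log2 fold change of 0.50 (SE 0.21). Abca1, a cholesterol exporter gene, averaged 135 ± 26.1 in exercise and 88.4 ± 16.3 in sedentary libraries (SD, n = 3 each).

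Lysosomal genes were higher for 17 of 20, with a median log2 fold change of 0.20, and 6 of them did not overlap between groups, all higher in exercise, where 7.54% of all genes did so. Psap, which codes for the precursor of the saposins that help to break down lipids, had 2657, 2712 and 2295 CPM in exercise libraries, against 1836, 1966 and 1640 in sedentary libraries (log2 fold change 0.45, SE 0.13). Psap averaged 443 and 439 in the other kept cells, exercise first. Ctsd, a protease gene, and Grn, the progranulin gene, had log2 fold changes of 0.52 and 0.37. Ctsl, another cathepsin gene, was lower, at 637, 672 and 1014 in exercise libraries against 932, 1018 and 1356 in sedentary libraries, with values of 2027 and 2544 in the other kept cells. The mean log2 level of the list was 8.97 ± 0.03 in exercise and 8.76 ± 0.04 in sedentary libraries (SD, n = 3 each). After thinning to 2000 UMIs and selection anew the median of the list was 0.0081, and in members of 2000 UMIs or more it was 0.20.

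Class II presentation genes were higher for 7 of the 8 tested, with a median log2 fold change of 0.25, which was 0.16 after thinning to 2000 UMIs. H2-Eb1, a class II beta chain gene, had 3666, 3175 and 2751 CPM in exercise libraries, against 2077, 2598 and 2373 in sedentary libraries (log2 fold change 0.40, SE 0.14). The mean log2 level of the list in T cells, which hold it as background, was 6.25 ± 0.32 in exercise and 5.73 ± 0.23 in sedentary libraries (SD, n = 3 each), so it was higher on average in exercise there too.

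Of the 20 hypoxia genes, 19 were tested and 18 were lower in exercise (median log2 fold change -0.59). Ankrd37, a target of the hypoxia-inducible factors, had 24.9, 16.4 and 25.2 CPM in exercise libraries, against 24.4, 65.5 and 79.5 in sedentary libraries (log2 fold change -1.40, SE 0.38). Sedentary 1 was within the exercise range for Ankrd37, so the groups overlapped. Ddit4, an inhibitor gene of mTOR signalling, had 22.9, 5.87 and 24.6 in exercise libraries, against 27.3, 60.7 and 41.6 in sedentary libraries (log2 fold change -1.27, SE 0.42), without overlap. The mean log2 level of the list was 6.08, 5.25 and 5.93 in exercise libraries, against 5.56, 6.59 and 6.84 in sedentary libraries. In T cells the same level was 5.73, 5.26 and 5.54 in exercise libraries, against 5.31, 6.15 and 5.98 in sedentary libraries. The order of the libraries was thus similar in cells that were not members, with sedentary 1 low in both.

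Of the 16 glycolysis genes, which overlap the hypoxia list in part, 0 were higher and 16 were lower in exercise (median log2 fold change -0.48). Gapdh, a glycolytic enzyme gene, had 1876, 1508 and 1582 CPM in exercise libraries, against 1771, 2687 and 2292 in sedentary libraries (log2 fold change -0.49, SE 0.16). Pkm, the pyruvate kinase gene, had 1076, 825 and 860 in exercise libraries, against 957, 1403 and 1176 in sedentary libraries. Sedentary 1 lay within the exercise range for both genes. The mean log2 level of the list averaged 7.74 in exercise and 8.17 in sedentary libraries in members, 7.37 and 7.61 in the other kept cells and 7.46 and 7.69 in T cells, so it was lower on average in exercise in all 3. Whether the difference in members was larger than in other cells was not tested.

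The 6 monocyte markers were lower for 5, with a median log2 fold change of -1.04, which was -0.65 after thinning to 2000 UMIs and -0.29 without sedentary 2. Vcan had 45.2, 24.7 and 16.2 CPM in exercise libraries, against 37.4, 169 and 37.0 in sedentary libraries (log2 fold change -1.59, SE 0.78, and -0.41 without sedentary 2). The summed level of the list was 1559, 1932 and 1038 in exercise libraries, against 1679, 3736 and 1453 in sedentary libraries. The groups overlapped, and sedentary 2 was the highest. Hp, the haptoglobin gene, had 7.65, 10.6 and 5.39 in exercise libraries, against 15.8, 24.1 and 12.0 in sedentary libraries (log2 fold change -1.29, SE 0.38), without overlap.

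**Figure D5:**
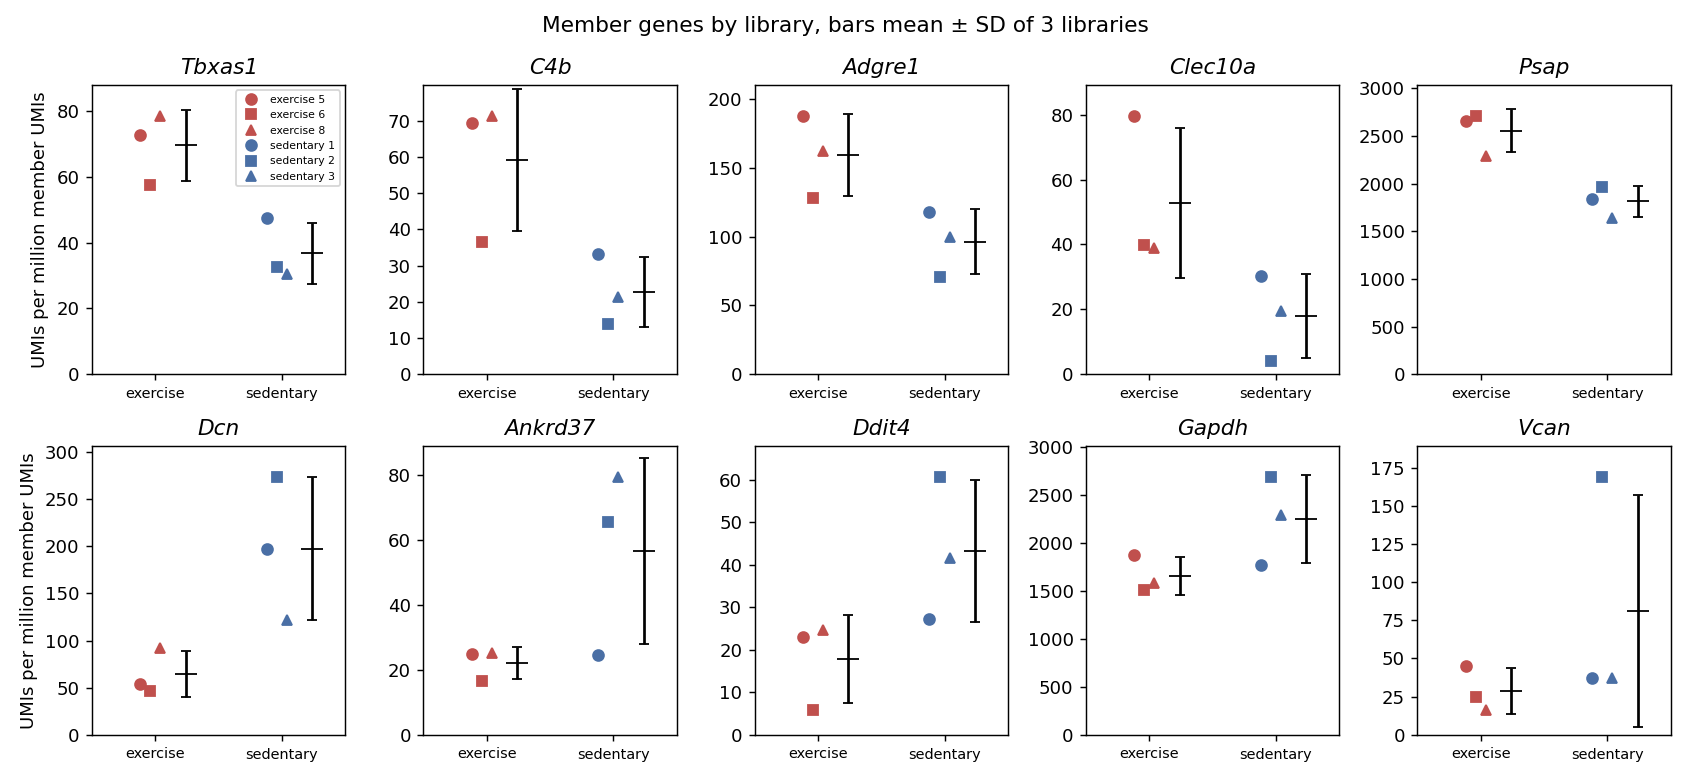
CPM of 10 genes in members, 1 point per library, exercise left of sedentary, with bars for the mean ± SD of 3 libraries. Tbxas1, C4b, Adgre1, Clec10a and Psap were higher in every exercise library than in every sedentary library, Dcn and Ddit4 lower, and Ankrd37, Gapdh and Vcan overlapped.

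The remaining lists are set beside the 49.7% of all genes that were higher. Of 18 tested interferon gamma genes 12 were higher, of 12 tested complement genes outside the selection 8, of 20 class I genes 13 and of 18 tested lipid-associated genes 11. Lpl, the lipoprotein lipase gene of the lipid list, had 63.1, 96.3 and 33.0 CPM in exercise libraries, against 15.8, 31.0 and 19.4 in sedentary libraries (log2 fold change 1.38, SE 0.41). Fabp5, a fatty acid carrier gene of the same list, was lower without overlap, with a log2 fold change of -0.32. The chemokine genes Ccl6 and Ccl9 had log2 fold changes of 1.04 and 0.94, with the highest values in exercise 5 at 610 and 269 CPM.

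Cxcl9, an interferon gamma target that attracts T cells, had 2144, 1668 and 1271 CPM in members of exercise libraries, against 953, 1592 and 858 in those of sedentary libraries (log2 fold change 0.53, SE 0.27). Sedentary 2 lay within the exercise range for Cxcl9. Of the class I genes H2-K1 was separate between groups, at 1779, 2213 and 2148 in exercise libraries against 1564, 1681 and 1653 in sedentary libraries. H2-K1 averaged 1550 and 1366 in the other kept cells in the same order.

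Of the 5 Fc receptor genes outside the selection 4 were higher, and Fcgr3, an activating receptor gene, had 593, 528 and 544 CPM in exercise libraries, against 443, 440 and 443 in sedentary libraries (log2 fold change 0.28, SE 0.13). Of 19 tested chemokine and chemokine receptor genes 11 were higher, with a median log2 fold change of 0.03. Of 16 tested immune regulation genes 7 were higher, and Tgfbr2, a TGF-beta receptor gene, was separate between groups with a log2 fold change of 0.73 (SE 0.23). Of 15 iron and haem genes 8 were higher, of 9 tested glucocorticoid response genes 5 and of 20 tested immediate early genes 9. Jun, an immediate early transcription factor gene, had 305, 286 and 312 in exercise libraries, against 303, 480 and 436 in sedentary libraries, so that sedentary 1 lay within the exercise range. Of 19 tested growth factor and matrix genes 6 were higher, and Wnt5a, a Wnt ligand gene, averaged 11.3 in exercise and 23.2 in sedentary libraries, against 35.4 and 60.8 in the other kept cells.

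Few lymphocyte markers were tested in members. Cd4, which macrophages can also express, had 18.5, 24.7 and 36.0 CPM in exercise libraries, against 17.3, 2.76 and 3.70 in sedentary libraries (log2 fold change 1.97, SE 0.56). Exercise 5 and sedentary 1 were close to each other.

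Of the 20 type I interferon genes 4 were higher and of the 15 tested NF-kB inflammatory genes 5, with medians of -0.17 and -0.28. Without sedentary 2 both medians were positive, at 0.15 and 0.21, so no direction is given for these lists. Of the 23 respiratory chain genes 5 were higher with a median of -0.08, and of the 11 tested heat shock genes 1 was higher with a median of -0.22. Tumour cell markers were lower for 7 of the 9 tested in members, with a median of -0.06.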

How the data were processed

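Members and gene lists were chosen with earlier results of these data known. The authors deposited raw UMI counts for each gene in each cell barcode. Per the submitters' processing notes the tool was Cell Ranger 6.1.2 with the build mm10, whereas the file headers name software version 3.1.0. Free RNA was not corrected for. The libraries held 58351 barcodes, and totals per library were 97426009 to 131778565 UMIs.

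Member counts were summed per library and tested with edgeR 4.0.16 (TMM, filterByExpr, robust quasi-likelihood, Benjamini-Hochberg adjustment), with exercise and sedentary as the only groups and no covariate. Standard errors are the log2 fold change over the square root of F. DESeq2 1.42.0 was an alternative. Shares were compared with two-sided exact permutation tests (scipy 1.17.1). Thinning to 2000 UMIs used a fixed seed for each library. For fold changes, list medians and shares of kept or myeloid cells after thinning, the selection was applied to the thinned counts. Shares of members with a UMI and C1q classes used members selected before thinning. Scrublet in scanpy 1.11.5 called 64 members doublets, which stayed in the main result. The test was checked on simulated counts. Named genes were the 10 with the smallest p in each direction and, per list, up to 4 with the smallest p and those above 500 CPM, selection genes left out. Some genes are not reported here. Other genes named for lists or markers were chosen after their values were seen. Descriptive ratios added 0.5 CPM and needed a mean over 50 in the cells named as higher and the same direction in 6 of 6 libraries. The precision of a single library's sums was not estimated, and besides counting error a single member could dominate them, as for Igkc in exercise 5. Limits at 2000 and 20000 UMIs, at 5 tumour marker UMIs and the joint removal of sedentary 2 and exercise 5 were chosen after seeing the data. Promoters came from RefSeq (GRCm38.p6).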

Additional observations from a re-analysis of the deposited data

How the results depend on the processing

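No paired analysis was possible because exercise and sedentary libraries share no replicate number. The number of genes past the adjusted p of 0.05 was 47 without a filter on low counts (25 higher, 22 lower, of 15554 tested), 1 in DESeq2 and 0 to 2 when 1 library was left out. The 2, Tnfrsf9 and Ier3, were lower in exercise and were called without sedentary 1. With edgeR the count was 0 under every other alternative. The cause was not tested.

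The difference in the share of kept cells was -0.0765 to 1.15 percentage points when 1 library was left out, and that of myeloid cells -3.12 to 3.77. The first was negative without exercise 8, the second without exercise 8 or sedentary 2 (-1.10). All other settings gave the direction of the main result, and no exact p was below 0.20.

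The lysosome median was 0.0081 when cells were thinned and selected anew, and 0.20 in members of 2000 UMIs or more. It was 0.25 without Scrublet doublets, 0.16 with barcodes of 20000 UMIs or fewer and 0.14 without sedentary 2 and exercise 5. When 1 library was left out it was 0.15 to 0.24. The monocyte marker median was -0.24 without sedentary 2 and exercise 5 and -1.37 to -0.29 when 1 library was left out. The macrophage identity median was 0.032 and the dead cell uptake median 0.14 when cells were thinned and selected anew. The type I interferon median was 0.45 without sedentary 2 and exercise 5 and -0.43 to 0.15 when 1 library was left out. The NF-kB median was -0.54 to 0.21, the scavenger median 0.36 to 1.10, the hypoxia median -0.88 to -0.46 and the glycolysis median -0.64 to -0.30 when 1 library was left out.

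Of the named genes, Gclm and Mcee turned to -0.18 and 0.10 when cells were thinned and selected anew. Apoe, at 0.47, was -0.015 to 0.95 when 1 library was left out, the lowest without exercise 8.

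Depth limits these values: sedentary 1 had 695623 member UMIs, the fewest of the 6, and genes with few UMIs carry large counting error.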
